A study of Mus musculus with 18 samples.

Results

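Of 20878 genes measured by RNA sequencing in mouse osteosarcoma tumors, 9 are described here: *Atrx*, *Daxx*, *H3f3a*, *H3f3b*, *Hira*, *Cbx5*, *Ezh2*, *Setdb1*, and *Trim28*. They were chosen by name, as the genes of ATRX, its histone chaperone partner DAXX, the histone variant H3.3, the chaperone HIRA, and proteins of heterochromatin. No measured value entered the rule, but earlier results of these data were known when the genes were chosen. All 9 were detected in all 18 tumors and passed the filter on low values in every comparison.

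The tumors grew in Balb/cJ or NSG mice, female per the study's methods, injected at 6 to 8 weeks of age with K7M2 cells. K7M2 is a mouse osteosarcoma line of Balb/c origin. The cells carried, by lentivirus, a control shRNA (ATRXCT) or an shRNA against *Atrx* (ATRXKD). The groups held 4 Balb/c ATRXCT tumors (mice 41, 43, 44, and 45), 4 Balb/c ATRXKD tumors (mice 56, 58, 59, and 60), 5 NSG ATRXCT tumors (mice 1 to 5), and 5 NSG ATRXKD tumors (mice 26 to 30), each from a different animal. The study asked whether ATRX loss in the tumor cells changes a tumor with or without an intact immune system. All 4 groups share the K7M2 line and a lentiviral shRNA, so no untransduced tumor is included. NSG mice carry the scid mutation and lack the *Il2rg* gene, and have no functional T, B, or NK cells, whereas Balb/c mice are immunocompetent. The shRNA acted only in the grafted cells, and host cells in the bulk tumor kept an intact *Atrx*. Whole cages of 5 mice were assigned to one kind of cells and the tumor labels give no cage, so cage and knock-down cannot be told apart.

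As background, ATRX is a chromatin remodeler of the SNF2 family that works with the chaperone DAXX to place histone H3.3 at telomeres, pericentromeric repeats, and other heterochromatin. HIRA places the same histone at active genes and promoters by a separate route. At ATRX-bound repeats, TRIM28 recruits the methyltransferase SETDB1, which writes H3K9 trimethylation, and HP1 proteins such as HP1α, the product of *Cbx5*, bind this mark. EZH2 is the catalytic subunit of Polycomb repressive complex 2 and writes H3K27 trimethylation. Loss of ATRX is frequent in sarcomas that maintain telomeres by recombination.

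Levels are given in FPKM, back from the deposited log2 (FPKM + 1), as the fragments of a gene divided by its transcript length and by the total of the library, so levels of different genes can be compared per length. Each library held an estimated 14700000 to 25200000 fragments, and the member with the fewest, *Hira*, had an estimated 460 in its lowest tumor. A slope of expression on transcript length was computed for each library, in log2 units per doubling of length, and it ranged from −0.13 to 0.18. A set of 6 libraries stood apart with slopes of at least 0.0903: mice 43 and 45 (Balb/c ATRXCT), 56 and 60 (Balb/c ATRXKD), 3 (NSG ATRXCT), and 27 (NSG ATRXKD). The main results are therefore also given with this trend removed from each library or without these 6 tumors. The labelled tissue was checked against 8 osteoblast lineage genes. *Col1a2* (218 to 594 FPKM) and *Spp1* (180.3 to 604 FPKM) were high and *Runx2* was at 3.54 to 11.1 FPKM, but the defining osteoblast genes *Sp7*, *Ibsp*, and *Bglap* were at most 0.43 FPKM in every tumor. T cell markers averaged 1.80 to 2.66 in log2 (FPKM + 1) in Balb/c tumors against 0.14 to 0.49 in NSG tumors, as the host labels state. NK cell markers did likewise, at 2.10 to 3.65 against 0.0094 to 0.046. B cell markers were low in both hosts and did not separate them, at 0.44 to 0.63 in Balb/c and 0.35 to 0.76 in NSG tumors. The methods give female mice for both hosts and list K7M2 as a female line, but the tumors differed in 4 Y-linked genes. In Balb/c tumors *Ddx3y*, *Eif2s3y*, *Kdm5d*, and *Uty* were at most 0.0115 FPKM. All NSG tumors expressed them, at 4.91 to 12.5, 5.64 to 14.4, 0.837 to 2.80, and 1.66 to 5.99 FPKM in the same order. In every comparison between hosts, host and this Y-linked difference cannot be told apart.

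Of the genes described here, the H3.3 genes were the most abundant and *Hira* the least. Over the 18 tumors, *H3f3b* averaged 340.5 FPKM, *H3f3a* 175 FPKM, *Trim28* 102 FPKM, and *Cbx5* 78.7 FPKM. *Setdb1* averaged 36.9 FPKM, *Ezh2* 20.5 FPKM, *Daxx* 18.9 FPKM, *Atrx* 14.7 FPKM, and *Hira* 8.79 FPKM. *H3f3b* was above *H3f3a* and *Setdb1* above *Ezh2* in 18 of 18 tumors, and only the latter pair of neighbours in this order had ranges that did not overlap. *Ezh2* and *Daxx* were close, with *Ezh2* higher in 13 of 18 tumors, and *Daxx* was above *Atrx* in 12 of 18.

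**Figure D1:**
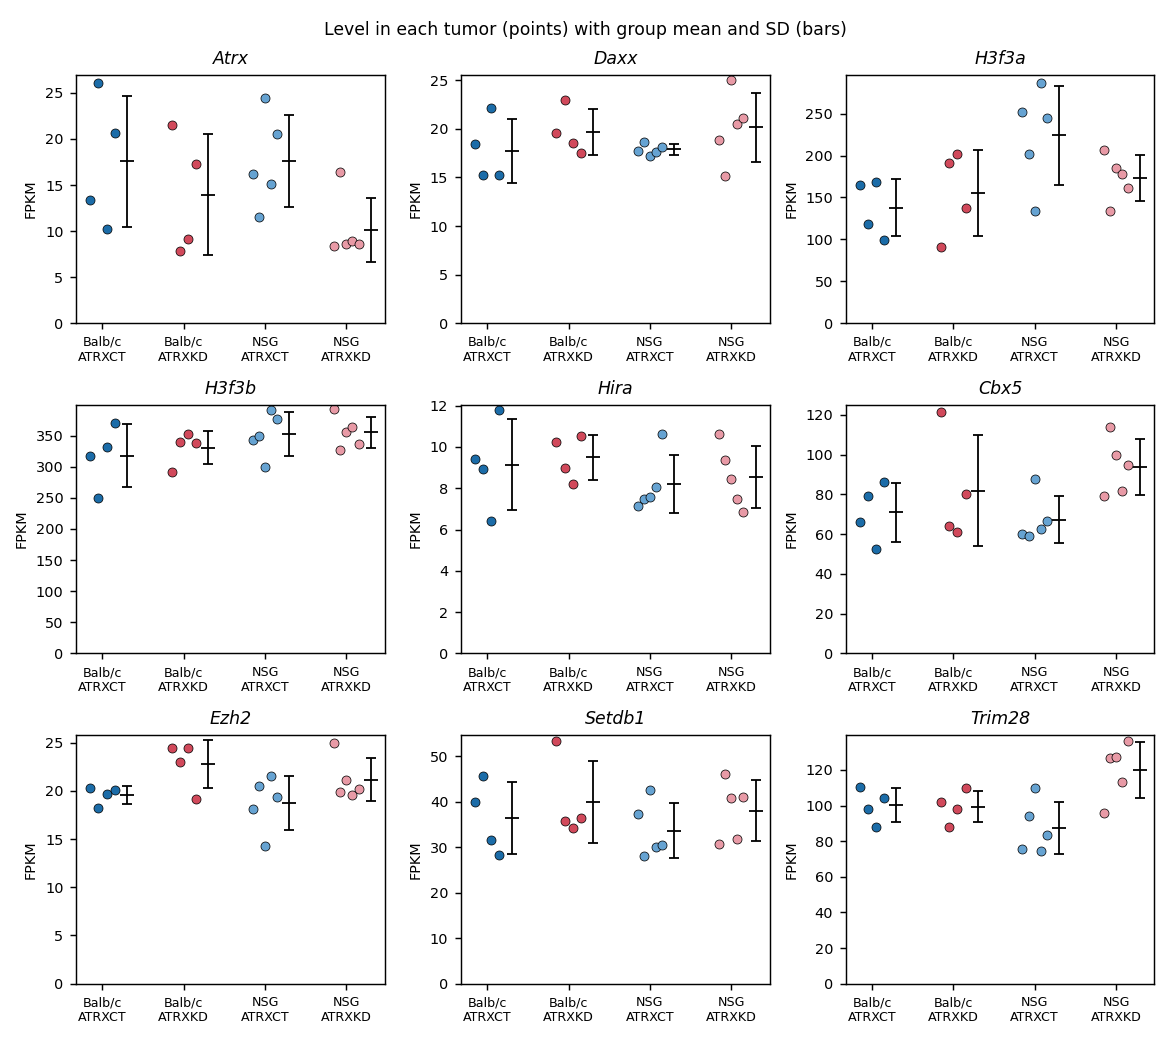
Level of each gene in FPKM (vertical axes, from 0) in every tumor of the 4 groups, with the group mean and SD as bars. The NSG ATRXKD tumors lie low for *Atrx*, with 4 of 5 tumors between 8.42 and 8.88 FPKM, and high for *Cbx5* and *Trim28*.

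The shRNA target *Atrx* is a gene of chromosome X (mm10, 105797615 to 105929372, minus strand) and its single annotated transcript has 35 exons and 10244 nt. Its levels in the tumors of the Balb/c ATRXCT group were 13.4, 26.0, 10.3, and 20.7 FPKM, in order of mouse number. Balb/c ATRXKD tumors had 21.5, 7.88, 9.11, and 17.3 FPKM. These groups overlapped over most of their range, with 2 ATRXKD tumors (mice 58 and 59) below every control and the other two within the control range. NSG ATRXCT tumors had 16.2, 11.6, 24.4, 15.1, and 20.5 FPKM, and NSG ATRXKD tumors 8.42, 16.4, 8.59, 8.88, and 8.59 FPKM. In NSG mice 4 of 5 ATRXKD tumors were below every control, and the fifth, from mouse 27, was within the control range.

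With all tumors, equal library weights, and the deposited values, *Atrx* did not pass in any comparison across all genes, although the estimate was below 0 in both hosts. In NSG mice the group means were 10.2 ± 3.47 FPKM in ATRXKD tumors and 17.6 ± 4.99 FPKM in ATRXCT tumors (SD, n = 5 each). On the log2 scale the fold change was −0.74 (SE 0.22; limma, adjusted p = 0.0610). The Balb/c means were 14.0 ± 6.54 and 17.6 ± 7.12 FPKM in the same order (SD, n = 4 each), with a log2 change of −0.34 and a 95% interval of −1.15 to 0.48 (limma, adjusted p = 0.999). As a single value, *Atrx* in log2 (FPKM + 1) differed between the NSG groups (two-sided exact permutation test over 252 arrangements, p = 0.0317) and did not pass between the Balb/c groups (70 arrangements, p = 0.486). With labels permuted within each host, the difference over both hosts was −0.54 (exact permutation test, p = 0.0452). Both calls were fragile: leaving out 1 tumor took p above 0.05 in 5 of 10 cases in NSG mice (mice 3, 26, 28, 29, and 30; at most 0.0635) and in 10 of 18 cases over both hosts (at most 0.105; exact permutation tests). The knock-down effect was not shown to differ between hosts, at an interaction of −0.40 with a 95% interval of −1.3 to 0.51 (limma, adjusted p = 0.806). In bulk tumors, fewer grafted cells and less *Atrx* RNA per cell cannot be told apart. The paper reports loss of ATRX protein by western blot in the K7M2 ATRXKD cell line, a measure of protein in cultured cells and not of RNA in tumors.

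*Atrx*, whose transcript of 10244 nt compares with a median of 2782 nt over expressed genes, moved with the slope of the library on transcript length. This slope was fitted on the values of expressed genes, *Atrx* included, so long transcripts as a class follow it by definition. The p-values below therefore do not set *Atrx* apart from other long transcripts. Among the 8 Balb/c tumors Pearson's r was 0.949 (exact permutation, p = 0.00213, adjusted p = 0.00533 over 5 relations) and Spearman's rho 0.857 (exact permutation, p = 0.0107, adjusted p = 0.0268), and r was 0.933 without the 2 tumors farthest from the median slope. Among the 10 NSG tumors r was 0.464 (permutation test, p = 0.188) and rho 0.321 (permutation test, p = 0.368), and without mice 3 and 27 r was −0.21. This r mixes 2 groups whose *Atrx* means differ. After subtraction of the group means it was 0.854 in NSG mice (exact permutation within groups, p = 0.0111, adjusted p = 0.0139; rho 0.588, p = 0.0986, adjusted p = 0.123), but it rested on mice 3 and 27, with an r of 0.349 without them. The same step gave 0.965 in Balb/c mice (exact permutation within groups, p = 0.0104, adjusted p = 0.0139; rho 0.833, p = 0.0347, adjusted p = 0.0579), and 0.941 without mice 44 and 56. Over all 18 tumors, with the group means subtracted, r was 0.927 (permutation test, p = 6e-05, adjusted p = 0.000300) and rho 0.866 (permutation test, p = 0.000560, adjusted p = 0.00280), with an r of 0.906 without the 2 farthest tumors. Both overlapping Balb/c ATRXKD tumors (mice 56 and 60) and the NSG tumor of mouse 27 had steep slopes.

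**Figure D2:**
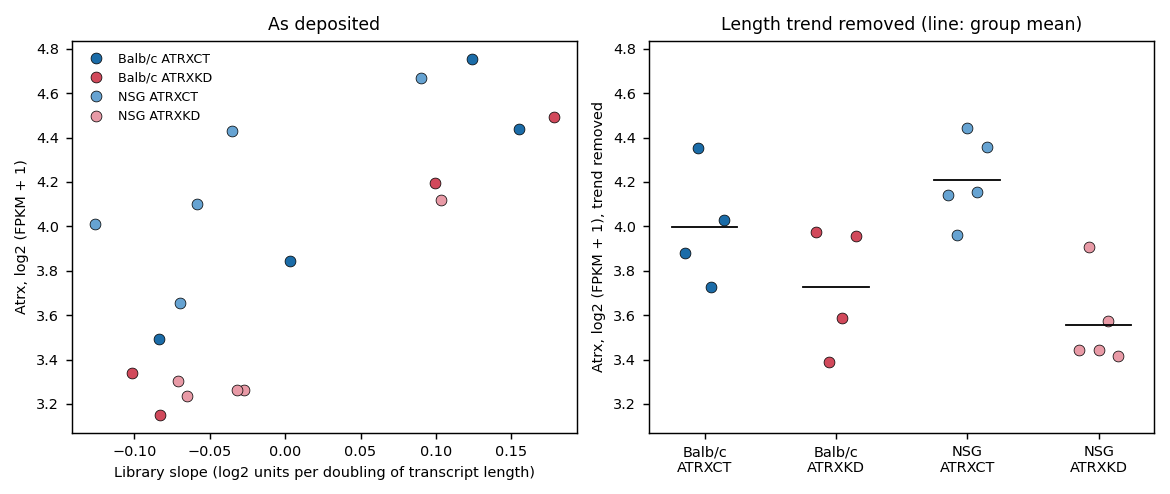
Left, *Atrx* in log2 (FPKM + 1) against the slope of each library on transcript length, in log2 units per doubling, with 1 point per tumor. Right, *Atrx* with the length trend removed, with the group mean as a line: the NSG ATRXKD tumors (3.42 to 3.91) lie below all NSG ATRXCT tumors (3.96 to 4.44).

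With the length trend removed from each library, *Atrx* fell in NSG ATRXKD tumors. The values, in log2 (FPKM + 1), became 3.44, 3.91, 3.44, 3.57, and 3.42 in NSG ATRXKD tumors and 4.14, 3.96, 4.44, 4.15, and 4.36 in NSG ATRXCT tumors, and these groups did not overlap. Among 14654 genes tested, 9.44% had NSG groups that did not overlap in either direction on these values, and 4.13% with the ATRXKD tumors lower. The log2 fold change was −0.65 (SE 0.12; limma, adjusted p = 0.0107; exact permutation test, p = 0.00794, the smallest that 252 arrangements allow). Over both hosts it was −0.46 (SE 0.11; limma, adjusted p = 0.0236; exact permutation test, p = 0.00238). The Balb/c value was −0.27 with a 95% interval of −0.67 to 0.13 (limma, adjusted p = 0.999), and the groups still overlapped. Without the 6 tumors of steep slope, *Atrx* also fell in NSG ATRXKD tumors (−0.78; limma, adjusted p = 0.0175) and over both hosts (−0.60; limma, adjusted p = 0.0302). With 2 tumors left in each Balb/c group, the value there was −0.43 (limma, adjusted p = 0.723). Weighting the libraries by their scatter around the group means, with a robust prior, gave −0.84 in NSG mice on the deposited values (limma, adjusted p = 0.000976). With these weights 36.9% of all genes passed there.

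The genes most like *Atrx* over the 18 tumors, by Pearson's r after subtraction of the group means among 12180 genes averaging 1 FPKM or more, were *Ccdc82* (0.985), *Trio* (0.983), *Wdfy3* (0.982), *Sh3pxd2a* (0.982), and *Pou2f1* (0.981). The 100 genes most like *Atrx* had a median transcript length of 8800.5 nt, against 2782 nt for all genes compared. With the length trend removed, the nearest were *Ccdc82* (0.957), *Ulbp1* (0.953), *Ewsr1* (0.924), *Ice1* (0.917), and *Tmem131* (0.915), and the median length of the nearest 100 was 3878 nt. *Cbx5*, with the second longest transcript of the 9 genes, had an r to *Atrx* of 0.873 on the deposited values and 0.114 with the trend removed. *Daxx* ran opposite to *Atrx* on both scales (−0.70 and −0.68), at ranks 9506 and 10858 of the 12180 genes, counted from the highest r. It was not alone in this among the 9 genes. *H3f3a* (−0.78 and −0.53), *H3f3b* (−0.53 and −0.15), and *Ezh2* (−0.44 and −0.36) were also below 0 on both scales. These correlations are descriptions over tumors that share library preparation, and no test was made of them.

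*Daxx*, the gene of the chaperone that binds H3.3 for ATRX, did not pass in either host with equal library weights. It passed in NSG mice with library weights and a robust prior (0.26; limma, adjusted p = 0.0458), where 36.9% of all genes passed. It averaged 17.7 ± 3.29 FPKM in Balb/c ATRXCT tumors and 19.7 ± 2.38 in Balb/c ATRXKD tumors (SD, n = 4 each), and 17.9 ± 0.550 and 20.1 ± 3.58 in the NSG groups (SD, n = 5 each). NSG ATRXCT tumors were tightly grouped (17.7, 18.7, 17.2, 17.6, and 18.1 FPKM), and of the NSG ATRXKD tumors (18.9, 15.2, 25.1, 20.5, and 21.1 FPKM) 4 lay above every control and 1, from mouse 27, below all of them. The log2 fold change of ATRXKD against ATRXCT was 0.15 in Balb/c mice (95% interval −0.20 to 0.50) and 0.15 in NSG mice (−0.10 to 0.40) (limma, adjusted p = 0.999 and 0.444).

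*H3f3a* and *H3f3b* encode the same H3.3 protein from separate loci on chromosomes 1 and 11. Their coding sequences, of 411 nt each, differ at 95 positions (76.9% identity), and the longest identical stretch is 23 nt. The first 90 coding bases are printed to show how reads of 75 bases can be told apart, with capitals at the 20 positions of this stretch where the sequences differ.
*H3f3a*: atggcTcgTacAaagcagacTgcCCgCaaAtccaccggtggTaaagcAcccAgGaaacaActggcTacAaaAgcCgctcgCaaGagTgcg
*H3f3b*: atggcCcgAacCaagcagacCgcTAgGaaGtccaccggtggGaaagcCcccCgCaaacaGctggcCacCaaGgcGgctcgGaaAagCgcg
No 75-nt window of one gene occurs in the other, but other loci, most of them processed pseudogenes, share windows with both. These make up 8.15% of the windows of *H3f3a* and 4.26% of those of *H3f3b*, counted over all GENCODE coding transcripts of each gene together. For *H3f3a* that is 3339 windows, whereas the transcript used for its level has 1086 nt. The shared part of that transcript was not measured and can be larger, so part of either level is uncertain.

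*H3f3a* and *H3f3b* differed in level in every tumor, and a link of level to upstream sequence was not tested. The upstream regions of both genes are shown as a description. Each spans 250 bases upstream of the RefSeq start (GRCm38.p6), chr1:180813606-180813855 for *H3f3a* and chr11:116024505-116024754 for *H3f3b*, both on the minus strand, with capitals at matches on either strand to the GC box (GGGCGG), to the CCAAT box, and to a TATA box (letters TATAAA).
*H3f3a*: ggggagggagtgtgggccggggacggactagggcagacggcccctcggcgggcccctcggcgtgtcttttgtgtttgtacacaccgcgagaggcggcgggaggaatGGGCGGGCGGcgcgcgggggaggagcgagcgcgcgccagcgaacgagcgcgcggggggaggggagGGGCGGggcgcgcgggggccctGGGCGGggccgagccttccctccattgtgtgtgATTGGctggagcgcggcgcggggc
*H3f3b*: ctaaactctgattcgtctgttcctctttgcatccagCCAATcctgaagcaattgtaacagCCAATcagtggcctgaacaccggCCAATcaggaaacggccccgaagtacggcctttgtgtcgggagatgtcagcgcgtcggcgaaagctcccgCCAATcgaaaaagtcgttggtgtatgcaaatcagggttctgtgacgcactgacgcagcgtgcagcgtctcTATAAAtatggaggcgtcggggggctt
The *H3f3a* region holds 35 CG dinucleotides, more than 97.0% of all promoters, with 4 GC boxes, overlapping ones included, and 1 CCAAT box. The *H3f3b* region holds 19 CG dinucleotides, 4 CCAAT boxes, and 1 TATAAA, and no GC box. Of 32851 RefSeq promoters of this length, 32.7% hold a GC box (GGGCGG), 33.8% a CCAAT box, and 12.4% TATAAA. Over the 9 genes, the upstream regions hold from 6 (*Atrx*) to 35 CG dinucleotides, against a median of 6 over all promoters.

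*H3f3b* had a narrower spread over the tumors than *H3f3a*, and neither passed between ATRXKD and ATRXCT tumors on the deposited values of all tumors with equal library weights. *H3f3b* averaged 317 ± 50.6 and 331 ± 26.9 FPKM in Balb/c ATRXCT and ATRXKD tumors (SD, n = 4 each), and 352 ± 35.2 and 355 ± 25.3 FPKM in the NSG groups (SD, n = 5 each). The estimated log2 change was 0.070 in Balb/c mice (95% interval −0.31 to 0.45) and 0.016 in NSG mice (−0.21 to 0.24; limma, adjusted p = 0.999 and 0.942). *H3f3a* was at 252, 202, 134, 287, and 245 FPKM in NSG ATRXCT tumors and at 207, 134, 185, 178, and 161 FPKM in NSG ATRXKD tumors. In NSG mice 3 of 5 controls were above every ATRXKD tumor, while the controls of mice 2 and 3 were within the ATRXKD range. The log2 fold change of *H3f3a* in NSG mice was −0.34 (SE 0.19; limma, adjusted p = 0.292). Across Balb/c tumors *H3f3a* spanned 91.1 to 202 FPKM in both groups together, at a log2 fold change of 0.14 (limma, adjusted p = 0.999). Without the 6 tumors of steep slope, *H3f3a* fell in NSG ATRXKD tumors (−0.42; limma, adjusted p = 0.0446), against 12.7% of all genes that passed. It also fell there with library weights (−0.50; limma, adjusted p = 0.00640), where 36.9% of all genes passed. With the length trend removed *H3f3a* did not pass (−0.29; limma, adjusted p = 0.151).

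Most H3.3 transcripts came from *H3f3b*, and its mean share was higher in NSG ATRXKD tumors than in their controls. Of the summed FPKM of both genes, *H3f3b* made up 65.5, 71.0, 65.8, 67.1, and 67.7% in NSG ATRXKD tumors and 57.6, 63.4, 69.1, 57.7, and 60.6% in NSG ATRXCT tumors. The control of mouse 3 was within the ATRXKD range, and the other 4 controls were below every ATRXKD tumor. The means were 67.4% ± 2.2 and 61.7% ± 4.77 (SD, n = 5 each), a difference of 5.73 percentage points (two-sided exact permutation test, p = 0.0476). It was 4.68 points with the length trend removed (exact permutation test, p = 0.0238) and 6.69 points with 4 tumors per group, without mice 3 and 27 (exact permutation test, p = 0.0286). The call was lost, at p between 0.0635 and 0.103, when any of 9 of the 10 tumors was left out, and p was 0.00794 without mouse 3 (exact permutation tests). The Balb/c share was 65.8, 67.7, 66.4, and 78.9% in ATRXCT tumors and 76.2, 64.1, 63.6, and 71.1% in ATRXKD tumors, a difference of −0.97 points (exact permutation test, p = 0.83). Over both hosts the difference was 2.38 points (exact permutation test, p = 0.351). In each of the 4 groups the tumors of steep slope had the highest shares. The *H3f3a* transcript, of 1086 nt, is shorter than that of *H3f3b*, of 1993 nt. The relation of the share to the slope was not tested.

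*Hira*, the gene of the chaperone of the DAXX-independent route, did not pass in either host. It ranged from 6.41 to 11.8 FPKM over the 18 tumors, with log2 fold changes of 0.072 in Balb/c mice (95% interval −0.33 to 0.48) and 0.054 in NSG mice (−0.24 to 0.35; limma, adjusted p = 0.999 and 0.836). Of its 75-nt windows, 55.7% also occur in *Gm28539*, an overlapping gene of the same strand that is in the GENCODE annotation but not in the authors' annotation.

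*Cbx5*, the gene of the H3K9 methylation reader HP1α, had a higher mean in NSG ATRXKD than in NSG ATRXCT tumors, a difference that did not pass on the deposited values of all tumors with equal library weights and passed with the length trend removed, with library weights, and without the 6 tumors of steep slope. NSG ATRXCT tumors had 60.3, 58.9, 87.6, 62.6, and 66.4 FPKM and NSG ATRXKD tumors 79.4, 114, 99.9, 81.6, and 94.7 FPKM. Every NSG ATRXKD tumor was above 4 of the 5 controls, and the control of mouse 3 was within the ATRXKD range. The log2 fold change was 0.48 (SE 0.13; limma, adjusted p = 0.0522). Among Balb/c tumors the controls had 65.9, 79.4, 52.5, and 86.1 FPKM and the ATRXKD tumors 122, 64.3, 61.3, and 80.2 FPKM, with overlap and a log2 fold change of 0.17 (95% interval −0.37 to 0.71; limma, adjusted p = 0.999).

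*Cbx5* has a transcript of 8902 nt, longer than that of *Trim28* (3242 nt) and close to that of *Atrx*, and removal of the length trend narrowed its groups. The values then were 6.0, 6.18, 6.26, 6.14, and 6.04 in NSG ATRXCT tumors and 6.51, 6.65, 6.81, 6.60, and 6.70 in NSG ATRXKD tumors, in log2 (FPKM + 1), with no overlap, as for 5.31% of 14654 genes with the ATRXKD tumors higher. *Cbx5* rose in NSG ATRXKD tumors by 0.53 (SE 0.076; limma, adjusted p = 0.00643) and over both hosts by 0.38 (SE 0.059; limma, adjusted p = 0.00279). The Balb/c values were 6.08, 5.97, 5.96, and 6.08 in ATRXCT and 6.48, 6.23, 6.19, and 6.13 in ATRXKD tumors. These Balb/c groups did not overlap either, which was so for 3.78% of 14701 genes in either direction and 1.71% with the ATRXKD tumors higher, but the log2 fold change of 0.24 did not pass (SE 0.10; limma, adjusted p = 0.915). Without the 6 tumors of steep slope, *Cbx5* rose in NSG ATRXKD tumors by 0.51 (limma, adjusted p = 0.0157) and was at 0.30 over both hosts (limma, adjusted p = 0.0725).

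*Trim28*, the corepressor that brings SETDB1 to its targets, likewise had a higher mean in NSG ATRXKD tumors, which did not pass when the deposited values of all NSG tumors were fitted alone with equal library weights. NSG ATRXCT tumors had 75.7, 94.1, 109.9, 74.5, and 83.5 FPKM and NSG ATRXKD tumors 95.7, 127, 127, 113, and 137 FPKM. All ATRXKD tumors but that of mouse 26 were above every control. The log2 fold change was 0.46 (SE 0.13; limma, adjusted p = 0.0578). Balb/c group means were 100.2 ± 9.54 FPKM in ATRXCT and 99.5 ± 8.91 FPKM in ATRXKD tumors (SD, n = 4 each), and the log2 change was −0.011 with a 95% interval of −0.29 to 0.27 (limma, adjusted p = 0.999). The interaction with host was 0.47 (95% interval 0.085 to 0.85; limma, unadjusted p = 0.0194, adjusted p = 0.404), and 10.3% of all genes had an unadjusted p under 0.05 in this test. *Trim28* rose in NSG ATRXKD tumors with the length trend removed (0.41; limma, adjusted p = 0.0368), without the 6 tumors of steep slope (0.52; limma, adjusted p = 0.0295), and in a fit of all 4 groups (0.46; limma, adjusted p = 0.0377), where it was the sole gene of the 9 to pass in NSG mice against 5.47% of all genes, with 0 of 9 in Balb/c mice against 0.108%.

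**Figure D3:**
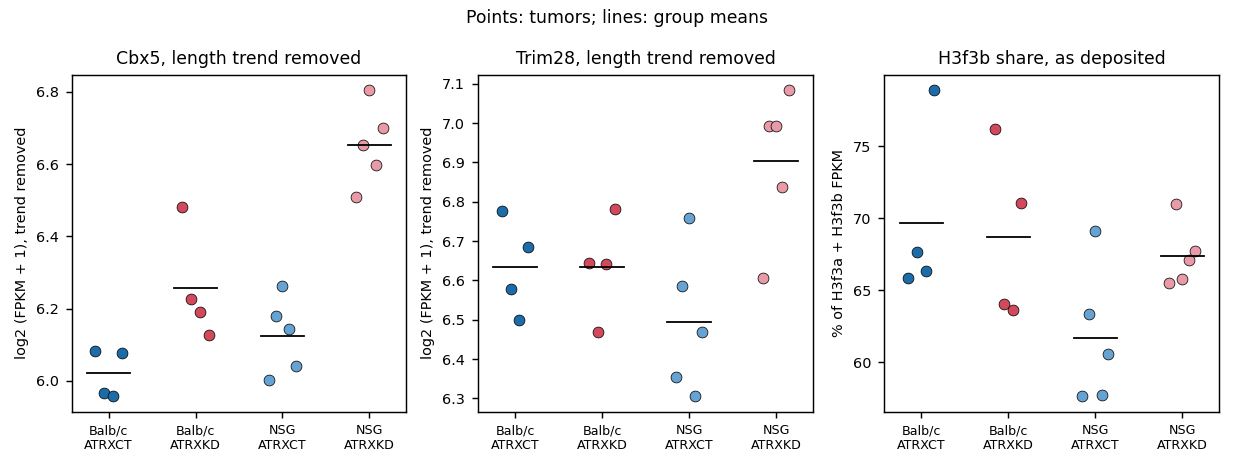
*Cbx5* and *Trim28* in log2 (FPKM + 1) with the length trend removed, and the share of *H3f3b* in the summed FPKM of *H3f3a* and *H3f3b* as deposited (vertical axes do not start at 0), with 1 point per tumor and lines at the group means. *Cbx5* in NSG ATRXKD tumors (6.51 to 6.81) lies above all NSG ATRXCT tumors (6.0 to 6.26).

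*Setdb1* and *Ezh2*, the methyltransferases of the set, did not pass in any comparison of ATRXKD and ATRXCT tumors. *Setdb1* averaged 36.3 ± 7.92 and 39.9 ± 9.04 FPKM in Balb/c ATRXCT and ATRXKD tumors (SD, n = 4 each) and 33.7 ± 6.05 and 38.1 ± 6.62 FPKM in the NSG groups (SD, n = 5 each). Its log2 fold changes were 0.13 (95% interval −0.30 to 0.57) and 0.17 (−0.14 to 0.49). *Ezh2* averaged 19.6 ± 0.931 and 22.8 ± 2.49 FPKM in Balb/c mice and 18.8 ± 2.81 and 21.2 ± 2.23 FPKM in NSG mice, with log2 fold changes of 0.20 and 0.17. Over both hosts *Ezh2* was at 0.19 (95% interval 0.018 to 0.36; limma, adjusted p = 0.236). *Setdb1* overlaps *Cers2* on the opposite strand and shares 4.84% of its 75-nt windows with *Gm4349*, so part of its level is uncertain.

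Counted together, 0 of the 9 genes passed in any comparison as first fitted, that is on the deposited values of all tumors, each host alone or both together, with equal library weights (limma, adjusted p under 0.05), and the background differed widely between hosts. The Balb/c comparison gave 1 of 14701 genes (0.00680%), the mast cell protease gene *Mcpt2* (log2 fold change −1.49; limma, adjusted p = 0.0226), which is named for its count and not by rule. At an unadjusted p under 0.05 there were 609 (4.14%), none of them among the 9. In NSG mice 994 of 14654 genes passed (6.78%), and over both hosts 351 of 14803 (2.37%), in a comparison that uses the tumors of both single-host comparisons again. In NSG mice the unadjusted p was under 0.05 for *Atrx* (0.00551), *Cbx5* (0.00377), and *Trim28* (0.00491; limma), against 26.3% of all genes. The median log2 fold change of the 9 genes was 0.13 in Balb/c mice and 0.15 in NSG mice, against medians of −0.0032 and −0.0014 over all genes tested, and 7 of 9 estimates were above 0 in each host.

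**Figure D4:**
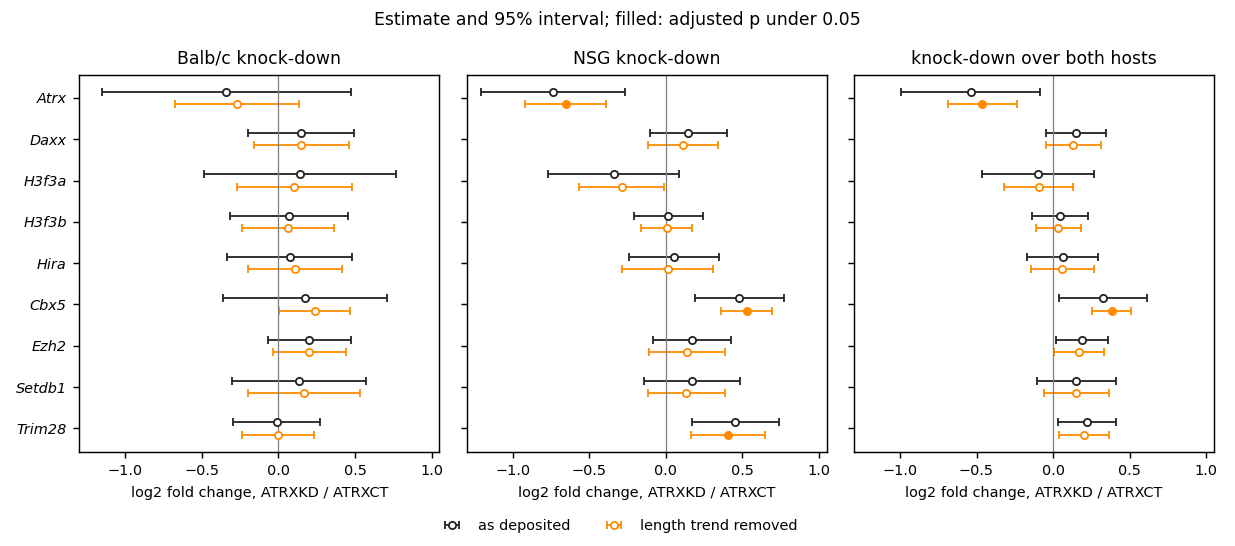
Log2 fold change of ATRXKD against ATRXCT tumors (horizontal axis) for each gene in the Balb/c, NSG, and pooled comparisons, with 95% intervals, as deposited (black) and with the length trend removed (orange). Filled points passed limma at an adjusted p under 0.05: *Atrx*, *Cbx5*, and *Trim28* in NSG mice and *Atrx* and *Cbx5* over both hosts, all with the trend removed.

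With the length trend removed, 3 of the 9 genes passed in NSG mice, 1 lower (*Atrx*) and 2 higher (*Cbx5* and *Trim28*), against 1768 of 14654 genes (12.1%), and 2 passed over both hosts, against 704 of 14803 (4.76%). The Balb/c comparison gave 0 of the 9 and 0 of 14701 genes. Without the 6 tumors of steep slope, 4 of the 9 genes passed in NSG mice (*Atrx*, *H3f3a*, *Cbx5*, and *Trim28*), against 12.7% of 14619 genes, and 1 over both hosts (*Atrx*), against 2.61% of 14692. There were 0 of 9 in Balb/c mice (0.0482% of all genes), between hosts (7.08%), and for the interaction (0.0136%). When limma weighted the libraries by their scatter around the group means and used a robust prior, 5 of the 9 passed in NSG mice (*Atrx*, *Daxx*, *H3f3a*, *Cbx5*, and *Trim28*), but so did 36.9% of all genes. With these weights 1 passed over both hosts (*Atrx*, against 17.0%), 1 between hosts (*H3f3a*, against 22.1%), 3 in the interaction (*H3f3a*, *Cbx5*, and *Trim28*, against 13.4%), and 0 in Balb/c mice (0.150%). On the deposited values no gene of the 9 had groups without overlap in either host, whereas 3.18% of genes did in Balb/c mice and 7.50% in NSG mice.

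Some proliferation genes, like the means of *Cbx5* and *Trim28*, were higher in NSG ATRXKD tumors, and no relation between them across tumors was computed. Of 12 such genes, 5 rose in NSG ATRXKD tumors (*Aurkb*, *Bub1*, *Mcm5*, *Mcm6*, and *Plk1*; limma, adjusted p between 0.0164 and 0.0491) and 7 did not pass, where 6.78% of all genes did. The mean of the 12 in log2 (FPKM + 1) was 5.84 to 6.03 in NSG ATRXKD tumors and 5.45 to 5.82 in NSG ATRXCT tumors. These ranges did not overlap, as for 7.50% of single genes in either direction. The summed FPKM, at 806 to 916 against 679 to 837, did overlap. The Balb/c means were 5.70 to 6.10 in ATRXKD and 5.78 to 5.93 in ATRXCT tumors. Some host cell markers moved too, while 0 of 7 skeletal muscle and 0 of 5 tested keratinocyte genes passed in NSG mice. Skeletal muscle genes varied widely within groups, with summed FPKM of 1.15 to 492 in NSG ATRXKD and 4.66 to 341 in NSG ATRXCT tumors. Of 8 macrophage genes 2 were lower in NSG ATRXKD tumors (*Lyz2* and *C1qb*), with summed FPKM of 1768 to 3163 against 2783 to 3793. *Lyz2* alone averaged 884 against 1655 FPKM. Of the macrophage estimates 7 were below 0 and 1 above, that of *Csf1r* (0.37, not passed), which averaged 321 against 253 FPKM. Of 6 endothelial genes 2 were higher (*Pecam1* and *Tie1*), with summed FPKM of 40 to 59.8 against 19.9 to 47.9. No gene of the proliferation, macrophage, and endothelial lists was at 0 in a whole group. The part of these cell types and of skeletal muscle in the levels of the 9 genes was not tested.

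Between hosts, averaged over both shRNAs, 0 of the 9 genes passed, against 1560 of 14803 genes (10.5%). The largest estimate was that of *H3f3a*, which was higher in NSG than in Balb/c tumors by 0.45 on the log2 scale (95% interval 0.077 to 0.81; limma, adjusted p = 0.117). It was 0.32 with the length trend removed (limma, adjusted p = 0.0627) and 0.22 without the 6 tumors of steep slope (limma, adjusted p = 0.187). *Cbx5* was at 0.084 as deposited (limma, adjusted p = 0.715) and was higher in NSG tumors with the length trend removed, by 0.25 (limma, adjusted p = 0.00969), against 12.0% of genes. *Atrx* was at −0.16 (95% interval −0.61 to 0.29) and turned to 0.022 with the trend removed. In the test of a knock-down effect that differs between hosts, 0 of the 9 and 0 of 14803 genes passed (limma), and 1527 genes (10.3%) had an unadjusted p under 0.05.

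Other genes of the same pathways were counted in 5 lists. Over these lists together, a smaller share passed in NSG mice than the 6.78% of all genes. Of 15 genes of H3.3 and H3 deposition, 2 rose in NSG ATRXKD tumors, the chromatin assembly factor subunit *Chaf1b* (0.32; limma, adjusted p = 0.0460) and the H3 chaperone *Nasp* (0.30; limma, adjusted p = 0.0342), and 13 did not pass. Of 22 measured genes of H3K9 methylation and HP1, 2 rose there, *Uhrf1*, which reads H3K9 methylation and hemimethylated DNA (0.65; limma, adjusted p = 0.0368), and the HP1γ gene *Cbx3* (0.37; limma, adjusted p = 0.0207). *Cbx3* averaged 40.6 ± 3.03 FPKM in NSG ATRXKD and 31.1 ± 0.960 FPKM in NSG ATRXCT tumors (SD, n = 5 each), with ranges of 36.7 to 43.5 and 29.8 to 32.4. It also rose over both hosts (0.26; limma, adjusted p = 0.0177), the sole gene of the 5 lists to do so, where 2.37% of all genes passed. Of 18 genes of PML bodies and SUMO, *Sae1* of the SUMO-activating enzyme rose in NSG ATRXKD tumors (0.32; limma, adjusted p = 0.0479). None of 17 Polycomb genes or of 26 tested SNF2 family ATPases passed in either host, with the most abundant SNF2 genes at 0.26 (*Chd4*) and 0.33 (*Smarca5*) in NSG mice. No gene of the 5 lists passed in Balb/c mice, where 0.00680% of all genes did.

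The medians of these lists in NSG mice were between −0.016 (SNF2 family) and 0.12 (H3K9 methylation and HP1), against −0.0014 over all genes. Between hosts, where 10.5% of all genes passed, 3 genes of the lists did, fewer than that share, and all were lower in NSG tumors: the DNA methyltransferase *Dnmt3b* (−0.27; limma, adjusted p = 0.0166), *Morc2a* of the HUSH silencing pathway (−0.24; limma, adjusted p = 0.0479), and the Polycomb subunit *Cbx2* (−0.42; limma, adjusted p = 0.0221). These lists were chosen with earlier results of the same data known.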

How the data were processed

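RNA of 18 K7M2 tumors was measured. Per the study's methods, the authors aligned paired reads of 75 bp to mm10 with STAR 2.6.0c, discarded PCR duplicates and reads of quality under 20, and estimated RefSeq gene levels with Cufflinks 2.2.1 (tools also listed in the submitters' processing notes). The deposited values are log2 (FPKM + 1). The base of the log was checked from the values: FPKM times transcript length summed to 1.10 to 1.13 times the total expected with base 2, whereas the natural log gave 8.45 to 11.2 times. The deposited annotation gave coordinates and transcript lengths. No normalization between libraries is named for these values, and the authors' own comparison was run with DESeq.

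Depth was read from the spacing of low FPKM values and is approximate: 37.8% to 49.3% of these values were whole fragments to within 0.1, against 20% by chance. This did not recover whole reads, and no count test was run. The 92 spike-in entries, at 3.71% to 6.16% of summed FPKM, were left out.

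Comparisons used limma 3.58.1 in R 4.3.3 (eBayes with trend) on log2 (FPKM + 1) for genes averaging 0.1 FPKM or more, with Benjamini-Hochberg adjustment over all genes tested. A fold change on this scale understates changes of low genes. A gene passed at an adjusted p under 0.05. The knock-down was tested in each host alone. The mean effect over both hosts, the difference between hosts, and the interaction came from a fit of all 4 groups. The length trend was removed per library as a lowess curve (span 0.3) of value minus gene mean on log2 length. Exact permutation tests and figures used Python 3.11.15, SciPy 1.17.1, and matplotlib 3.10.9. The steps were tested on simulated data.

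Named genes were the 9 genes, the list genes that passed, the most abundant list genes where none passed, and the 5 genes most like *Atrx*. The 9 genes and all lists were chosen with earlier results of these data known. Alternatives were a pseudocount of 0.1, median-ratio scaling, quantile normalization, removal of the length trend, other filters, a fold of at least 2, library weights with a robust prior, a shared fit, and leaving out each tumor. The relation of *Atrx* to length after subtraction of group means and the omission of 6 tumors with slopes above 0.05 were added after seeing the data. Sequences came from RefSeq (GRCm38.p6) and GENCODE vM21 transcripts, which were also searched for shared 75-nt windows. Human cohorts and other cell lines were not analysed here.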

Additional observations from a re-analysis of the deposited data

Results flagged for a closer look

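Single tumors that stood far from the rest of their group were looked for in 40 groups of 4 or 5 tumors, of which about 2 would be expected by chance, and 3 were found. In log2 (FPKM + 1), *Atrx* reached 4.12 in NSG ATRXKD mouse 27 while the other 4 tumors of that group had 3.24 to 3.3, and the library of this tumor had a slope of 0.103 on transcript length, the highest of its group. With the length trend removed *Atrx* was 3.91 in this tumor, against 3.42 to 3.57 in the others. *Setdb1* reached 5.77 in Balb/c ATRXKD mouse 56, with 5.13 to 5.23 in the rest of its group, and this library had the highest slope of all, 0.179. The share of *H3f3b* in H3.3 transcripts was 78.9% in Balb/c ATRXCT mouse 45, and the other 3 tumors of the group had 65.8% to 67.7%. Its library had a slope of 0.155, and its keratinocyte markers averaged 3.23 in log2 (FPKM + 1), where the other 3 had 0.27 to 0.32. Without this tumor the Balb/c difference in the share turned from −0.97 to 2.10 points (exact permutation test, p = 0.6). The part of the slope and of the keratinocyte markers in these values was not tested.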

How the results depend on the processing

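The counts of genes that passed depended on the settings. In Balb/c mice, where 1 gene passed, there were 0 with the length trend removed, 0 with no filter, 0 at a mean of 1 FPKM or more, 22 with library weights, 16 in a fit of all 4 groups, and 7 without the 6 tumors of steep slope. In NSG mice there were 1768 with the length trend removed, 5414 with library weights, 1854 without the 6 tumors, and 68 at a fold of at least 2. Over both hosts there were 704, 2517, and 18 with the trend removed, with library weights, and at that fold. For the host difference there were 3274 with library weights and 213 at that fold, and for the interaction 1985 and, without the 6 tumors, 2. Of the 9 genes, those that passed in NSG mice were 3 with the trend removed, 5 with library weights (*Daxx* and *H3f3a* added, against 36.9% of all genes), 1 in the fit of all 4 groups, and 4 without the 6 tumors. Over both hosts they were 2, 1 with library weights, and 1 without the 6 tumors, for the host difference 1 with the trend removed (*Cbx5*) and 1 with library weights (*H3f3a*), and for the interaction 3 with library weights (*H3f3a*, *Cbx5*, and *Trim28*, against 13.4%). A pseudocount of 0.1, median-ratio scaling, and quantile normalization changed no call among the 9. Over those settings and the filters, the adjusted p of *Atrx* in NSG mice stayed at or below 0.132. The r of *Atrx* with the length slope in NSG mice, 0.464 without centring, was 0.854 with the group means subtracted, and 0.927 over all 18 tumors treated in the same way. The cause of these differences was not tested.

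Directions of small estimates were not stable. Library weights turned in Balb/c mice *Hira* to −0.024, *Cbx5* to −0.033, and *Setdb1* to −0.077, in NSG mice *H3f3b* to −0.044 and *Hira* to −0.071, over both hosts *Hira* to −0.049, for the host difference *Atrx* to 0.049, and for the interaction *Daxx* to 0.048. Quantile normalization turned in Balb/c mice *H3f3b* to −0.0050, for the host difference *H3f3b* to −0.072, *Cbx5* to −0.013, and *Trim28* to −0.064, and for the interaction *H3f3b* to 0.072 and *Setdb1* to −0.035. Removal of the length trend turned for the host difference *Atrx* to 0.022 and *Setdb1* to 0.013, and for the interaction *Setdb1* to −0.034. Omission of the 6 tumors turned in Balb/c mice *Setdb1* to −0.023, in NSG mice *H3f3b* to −0.011, for the host difference *Atrx* to 0.20, *Daxx* to −0.058, and *Hira* to 0.010, and for the interaction *Daxx* to 0.19. Leaving out single tumors gave 144 to 2080 genes in NSG mice, lowest without ATRXKD mouse 30 and highest without ATRXCT mouse 3, 0 to 2 in Balb/c mice, 155 to 454 over both hosts, and 0 to 1 for the interaction. The 9 genes gave 0 to 3 calls in NSG mice: *Atrx* without mouse 2 or 27, *Cbx5* and *Trim28* without mouse 3 or 26, and *H3f3a* without mouse 3. For the host difference they gave 0 to 1, *H3f3a* without mouse 3. The *Atrx* difference was −0.91 to −0.61 in NSG mice (exact permutation, p between 0.0159 and 0.0635) and −0.65 to −0.43 over both hosts (p between 0.0166 and 0.105). The *H3f3b* share differed by 4.72 to 7.58 points in NSG and −3.45 to 2.10 in Balb/c mice. Estimates whose sign depended on a single tumor were, in Balb/c mice *H3f3a* (−0.0063 to 0.37), *H3f3b* (−0.041 to 0.15), *Hira* (−0.069 to 0.19), *Cbx5* (−0.034 to 0.29), *Setdb1* (−0.012 to 0.25), and *Trim28* (−0.070 to 0.045), in NSG mice *H3f3b* (−0.040 to 0.056) and *Hira* (−0.020 to 0.14), over both hosts *H3f3a* (−0.19 to 0.016), *H3f3b* (−0.013 to 0.083), and *Hira* (−0.0075 to 0.12), for the host difference *Daxx* (−0.015 to 0.078) and *Trim28* (−0.013 to 0.068), and for the interaction *Daxx* (−0.11 to 0.089), *H3f3b* (−0.13 to 0.058), *Hira* (−0.14 to 0.12), *Ezh2* (−0.12 to 0.020), and *Setdb1* (−0.076 to 0.18). No paired analysis was possible because the mouse numbers are not shared between groups. Depth limits *Hira* and *Daxx* most, and with 4 or 5 tumors a group, where a 95% interval includes 0, changes of up to its bounds cannot be told from 0.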
